A study of Homo sapiens with 12 samples.

Results

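The oncofetal liver genes described here are IGF2, H19, GPC3, DLK1, PEG10, LIN28B, IGF2BP1, IGF2BP2, IGF2BP3 and DKK1, which are 10 of the 57500 genes counted in every library. They were chosen by name with earlier results of these data known, so their counts of calls beside those of all genes are descriptions. All 10 symbols matched a gene in the count files. Oncofetal genes are transcribed in the fetal liver, are largely shut off in the adult organ and are often transcribed again in hepatocellular carcinoma. IGF2 is a fetal growth factor whose imprinted locus it shares with the noncoding RNA H19, and the IGF2BP proteins bind IGF2 and other mRNAs. LIN28B blocks the maturation of let-7 microRNAs, which in turn repress LIN28B and IGF2BP mRNAs, while GPC3 and DKK1 act at the cell surface and outside the cell on growth factor and Wnt signalling.

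RNA sequencing was done in HepG2, a human line labelled as hepatocarcinoma cells, in 3 groups of 4 libraries. WT was the wild-type control, shTST carried a lentiviral short hairpin RNA against TST (thiosulfate sulfurtransferase, a mitochondrial enzyme that detoxifies cyanide), and overTST carried a lentiviral, codon-optimised TST under the CMV promoter. The transduced cells were selected with Blasticidin S, and all 3 groups were kept for 24 h in normal medium containing 400 µM glycine. The question was how silencing and overexpression of TST change the transcriptome. A non-targeting or empty-vector control is not described in the sources used here, so transduction and selection cannot be told apart from the level of TST. Whether each engineered line was a clone or a pool is not given there. The 4 libraries of a group were called independent replicates, which the methods define in general as experiments done on separate days. Whether libraries with the same number share a day is not given, and p-values measure the spread between these libraries.

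Total counts ranged from 22911380 to 45120508 per library, with overTST the shallowest group (22911380 to 27414142). TST itself was at 47.2 to 52.8 CPM (counts scaled by TMM over the 12 libraries and by library size) in WT, 33.0 to 36.6 in shTST and 51.8 to 62.1 in overTST. All shTST libraries lay below WT, with a log2 fold change of -0.52 ± 0.05 (SE) and an adjusted p of 3.2e-06. The overTST range overlapped WT (0.24 ± 0.06, adjusted p = 0.00384), and with a correction for gene length the call was lost (TST log2 fold change 0.10, adjusted p = 0.201). Reads of a codon-optimised transgene need not align to TST, so that value does not check the overTST label. The hepatocyte genes of the line were detected, with ALB at 5738 ± 555 CPM and AFP at 2013 ± 202 CPM in WT (SD, n = 4). Summed CPM over 5 fibroblast markers, mostly PDGFRB, was 21.6 to 25.2 in WT, 17.0 to 19.4 in shTST and 15.9 to 17.9 in overTST, with 1 marker at 0 counts in each group. Over 5 endothelial markers it was 2.51 to 3.29, 1.84 to 2.16 and 3.4 to 3.91, with 1 to 2 at 0. Over 5 leukocyte markers it was 1333 to 1748 CPM, nearly all of it LYZ, and 5.25 to 8.3 CPM without it. Mitochondrially encoded genes took 6.91 to 11.98% of counts in WT, 6.84 to 8.65% in shTST and 10.8 to 11.7% in overTST. The part of these markers and shares in the results was not tested.

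Of the 10 genes, 4 hold a let-7 seed match in the longest annotated 3′ UTR (GENCODE 29, GRCh38), namely the sense-strand motif CTACCTC, which pairs with bases 2 to 8 of the microRNA. LIN28B has 4 matches, IGF2BP1 has 4, IGF2BP2 has 1 and IGF2BP3 has 1, whereas IGF2, GPC3, DLK1, PEG10 and DKK1 have 0 and H19, a noncoding RNA, was not scanned. Across 18882 coding genes with a 3′ UTR, 9.81% have at least 1 match and 1.15% at least 2. The match nearest the stop codon of each of the 4 genes is shown under the mature let-7a (RefSeq) because these genes share it. LIN28B, IGF2BP1 and IGF2BP3 were called in at least 1 comparison, and IGF2BP2 in 0 of 3. Of all genes tested, 16.1% were called in shTST against WT, 33.9% in overTST against WT and 33% in shTST against overTST. The share called in at least 1 of these was not counted. Capitals mark the seed in the microRNA and its match in the mRNA, and all sequences run 5′ to 3′.
hsa-let-7a-5p: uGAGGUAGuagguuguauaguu
LIN28B: cccggttgcaaagtCTACCTCatgcaagta
IGF2BP1: gtgtgcgaagtaaaCTACCTCaaggtatga
IGF2BP2: acacacagaagaagCTACCTCaggtgtttt
IGF2BP3: gcatttttactcaaCTACCTCaggtattca

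The matches shown lie at chr6:105078827-105078833 (+) for LIN28B, chr17:49051076-49051082 (+) for IGF2BP1, chr3:185644221-185644227 (-) for IGF2BP2 and chr7:23311796-23311802 (-) for IGF2BP3. A match is a description and not a measured site, and mature let-7 was not measured in these libraries. The 3′ UTRs that hold them measure 4549 bases in LIN28B, 6206 in IGF2BP1, 1792 in IGF2BP2 and 2153 in IGF2BP3. Among genes with 3′ UTRs of 0.8 to 1.2 times that length, 0.205% had at least as many matches as LIN28B, and 0.593% at least as many as IGF2BP1. For the single matches of IGF2BP2 and IGF2BP3 the shares were 10.9% and 12.4%, near that of all genes.

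Levels between genes were compared as TPM (a length-normalised share of transcripts, computed from the counts and the exonic length in the count files). In WT the order was IGF2 (1868 ± 151 TPM, SD, n = 4), PEG10 (1513 ± 181), GPC3 (718 ± 168), DKK1 (246 ± 44.0), DLK1 (179 ± 36.1), IGF2BP1 (158 ± 14.2), IGF2BP2 (89.3 ± 6.36), LIN28B (33.9 ± 4.34), IGF2BP3 (17.0 ± 1.92) and H19 (0.106 ± 0.0958). The order of the means was the same in shTST and overTST. In WT the ranges of DKK1 and DLK1 overlapped, as did those of DLK1 and IGF2BP1, and every other neighbouring pair was apart, whereas in shTST and overTST all neighbouring pairs were apart. IGF2 ranked 47 among all genes by mean TPM in WT, while H19 from the same locus ranked 19842. The 10 genes together took 0.953 to 1.05% of counts in WT, 1.09 to 1.23% in shTST and 0.822 to 0.873% in overTST, and these 3 ranges did not overlap.

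**Figure D1:**
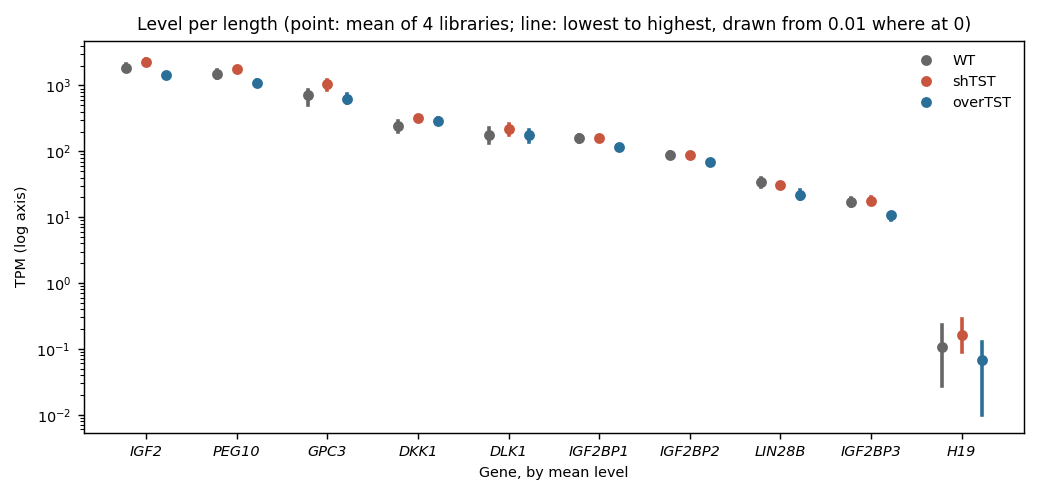
Levels per length of the 10 genes in TPM (log axis), with points for the mean of 4 libraries and lines from the lowest to the highest library of WT, shTST and overTST. In WT the genes run from IGF2 at 1868 TPM to IGF2BP3 at 17.0 TPM, and H19 sits apart at 0.106 TPM.

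In shTST against WT, 9 of the 10 genes had enough counts to be tested, and 5 of them passed the threshold, against 16.1% of all 14584 genes tested. GPC3, DKK1, IGF2 and PEG10 were higher (4 genes, against 6.69% of all genes) and LIN28B was lower (1 gene, against 9.4%). In overTST against WT, 6 of 9 passed, against 33.9% of 14421 genes. DKK1 was higher there (1 gene, against 15.7%), and IGF2BP3, LIN28B, PEG10, IGF2BP1 and IGF2 were lower (5 genes, against 18.2%). Without the length correction, the median log2 fold change of the 9 genes was 0.19 in shTST and -0.16 in overTST. Over all genes tested it was 0.00 in both comparisons. With the length correction, 3 genes in place of 5 were lower in overTST and 2 in place of 1 higher. The 5 genes called lower there without it have exonic lengths of 6002 to 9109 bases. DKK1 has 2206, and GPC3, IGF2BP2 and DLK1 have 2711 to 5312. The part of length in these values was not tested. The calls are from edgeR's quasi-likelihood test with Benjamini-Hochberg adjustment over all genes at 0.05, and both comparisons share the WT libraries.

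In the direct contrast of shTST with overTST, 6 of 9 genes passed and all 6 were higher in shTST, against 33% of 14883 genes called and 16.9% called higher. These were GPC3, PEG10, IGF2BP3, IGF2, LIN28B and IGF2BP1. With the length correction the calls of LIN28B (adjusted p = 0.0695) and IGF2BP1 (0.168) were lost. Against WT, LIN28B was called lower in shTST, and IGF2BP3 and IGF2BP1 were not called there. The median of the 9 genes without the length correction was 0.20, against 0.00 over all genes.

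**Figure D2:**
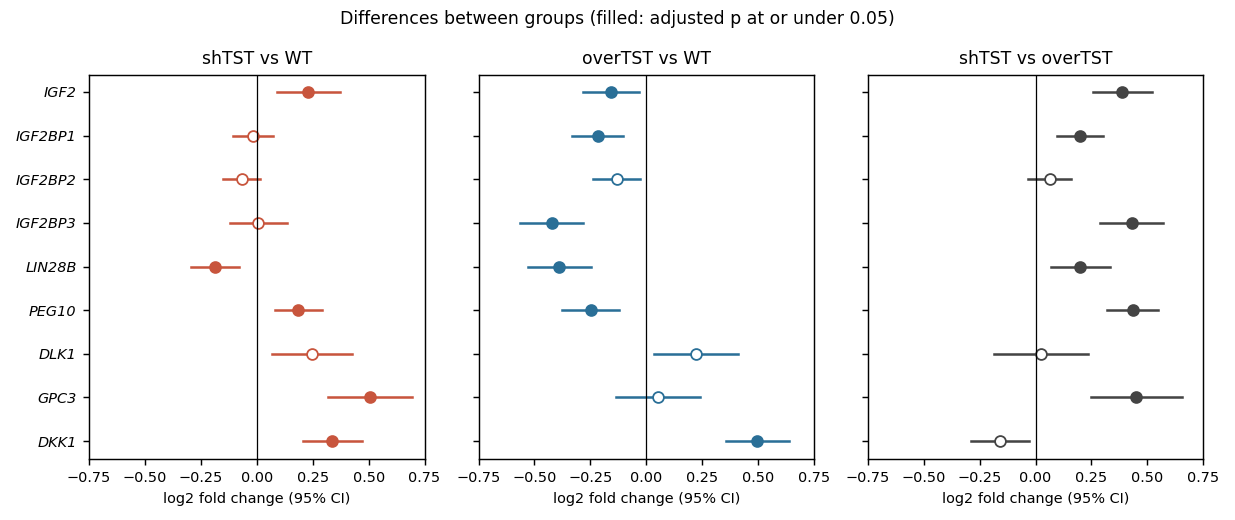
Log2 fold changes with 95% confidence intervals of the 9 tested genes in shTST against WT, overTST against WT and shTST against overTST, filled where the adjusted p was at or under 0.05. IGF2 and PEG10 lie above 0 in shTST (0.23 and 0.19) and below 0 in overTST (-0.16 and -0.25), DKK1 lies above 0 in both (0.34 and 0.50) and LIN28B below 0 in both (-0.19 and -0.39).

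IGF2 (ENSG00000167244, chr11:2129112-2141238, minus strand) encodes insulin-like growth factor 2. It was at 4312, 4012, 3858 and 4472 CPM in WT replicates 1 to 4, at 4944, 4347, 5519 and 4726 in shTST and at 3623, 3703, 3596 and 4006 in overTST. Of the 4 shTST libraries 3 lay above every WT library, and of the 4 overTST libraries 3 lay below every one, so both ranges overlapped WT while shTST and overTST were apart from each other. The log2 fold change was 0.23 ± 0.07 in shTST (adjusted p = 0.0216) and -0.16 ± 0.06 in overTST (adjusted p = 0.0496). Between shTST and overTST it was 0.39 ± 0.06 (adjusted p = 6.14e-05). The call in shTST was lost without WT replicate 3 (adjusted p = 0.0577), shTST replicate 1 (0.058) or shTST replicate 3 (0.0909). The call in overTST was lost under 11 of 18 alternatives. Of the single libraries, these were WT replicate 1 (0.13), WT replicate 4 (0.173) and overTST replicates 1 (0.0811), 2 (0.104) and 3 (0.15), and with a correction for gene length the fold change was -0.08 (adjusted p = 0.326). The direct contrast passed under all 18. The exons of IGF2 share 23.4% of their bases with other annotated genes, namely INS-IGF2 and ENSG00000240801 on the same strand and IGF2-AS on the other. These held 0 to 52 counts per library against 87413 to 190409 for IGF2. How reads in shared bases were counted is not given in the sources used here. The counts therefore cannot show whether IGF2 lost reads there.

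H19 (ENSG00000130600, chr11:1995163-2001470, minus strand), the noncoding partner of IGF2 at this imprinted locus, lies 127642 bp from it. The 4 WT libraries held 7, 6, 1 and 1 counts, the shTST libraries 8, 4, 3 and 4, and the overTST libraries 4, 3, 1 and 0. These 42 counts stand against 1546745 for IGF2 over the same 12 libraries. H19 did not reach the level needed for a test, and no difference between groups was detectable at this depth, where 3 counts correspond to 0.0665 to 0.131 CPM without TMM scaling. The ratio of H19 to IGF2 was not computed, as H19 was at 0 in 1 library.

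PEG10 (ENSG00000242265, chr7:94656325-94669695, plus strand), a retrotransposon-derived, paternally expressed gene, was at 3802, 3512, 3531 and 3505 CPM in WT, at 4104, 4062, 3989 and 4162 in shTST and at 3391, 2962, 2836 and 2887 in overTST. Every shTST library was above and every overTST library below every WT library. Of all genes tested, 19.1% had ranges apart in shTST against WT (8.37% higher and 10.8% lower) and 30.4% in overTST against WT (14.2% higher and 16.2% lower). PEG10 rose by 0.19 ± 0.05 on the log2 scale in shTST (adjusted p = 0.0161) and fell by 0.25 ± 0.06 in overTST (adjusted p = 0.00307), and the direct contrast was 0.43 ± 0.05 (3.04e-06). The shTST call was lost without shTST replicate 4 (adjusted p = 0.0581), and the overTST and direct calls passed under all 18 alternatives. SGCE is the imprinted neighbour of PEG10, transcribed away from it. The log2 ratio of PEG10 to SGCE counts per exonic length was 5.84 ± 0.05 in WT, 5.97 ± 0.04 in shTST and 5.85 ± 0.10 in overTST (SD, n = 4). By an exact two-sided permutation test the difference of shTST from WT, 0.12, had p = 0.0286, the smallest that 4 against 4 libraries can give, and missed the threshold after adjustment over 4 ratio tests (0.0571). For overTST the exact p was 0.857, with a difference of 0.01.

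DLK1 (ENSG00000185559, chr14:100725705-100738224, plus strand), an imprinted transmembrane protein of hepatoblasts, had a coefficient of variation of 13.6 to 17.6% between replicates. It ranged from 292 to 401 CPM in WT, from 325 to 475 in shTST and from 308 to 469 in overTST. The log2 fold change was 0.25 ± 0.09 in shTST (95% CI 0.07 to 0.43, adjusted p = 0.0564) and 0.22 ± 0.09 in overTST (95% CI 0.03 to 0.41, adjusted p = 0.0622), and neither passed. Each passed under 7 of 18 alternatives, among them leaving out WT replicate 3 (adjusted p = 0.00525 in shTST and 0.00662 in overTST), shTST replicate 2 (0.00504) or overTST replicate 1 (0.00173). Both also passed with the length correction (0.04 in shTST and 0.0299 in overTST) and with a replicate block (0.00276 and 0.0198). Neither passed in DESeq2 (0.253 and 0.309) or limma-voom (0.32 and 0.346). shTST and overTST differed by 0.02 (95% CI -0.19 to 0.23). MEG3, the noncoding RNA of the same imprinted locus, held 0 counts in all libraries, so no ratio to it was computed.

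**Figure D3:**
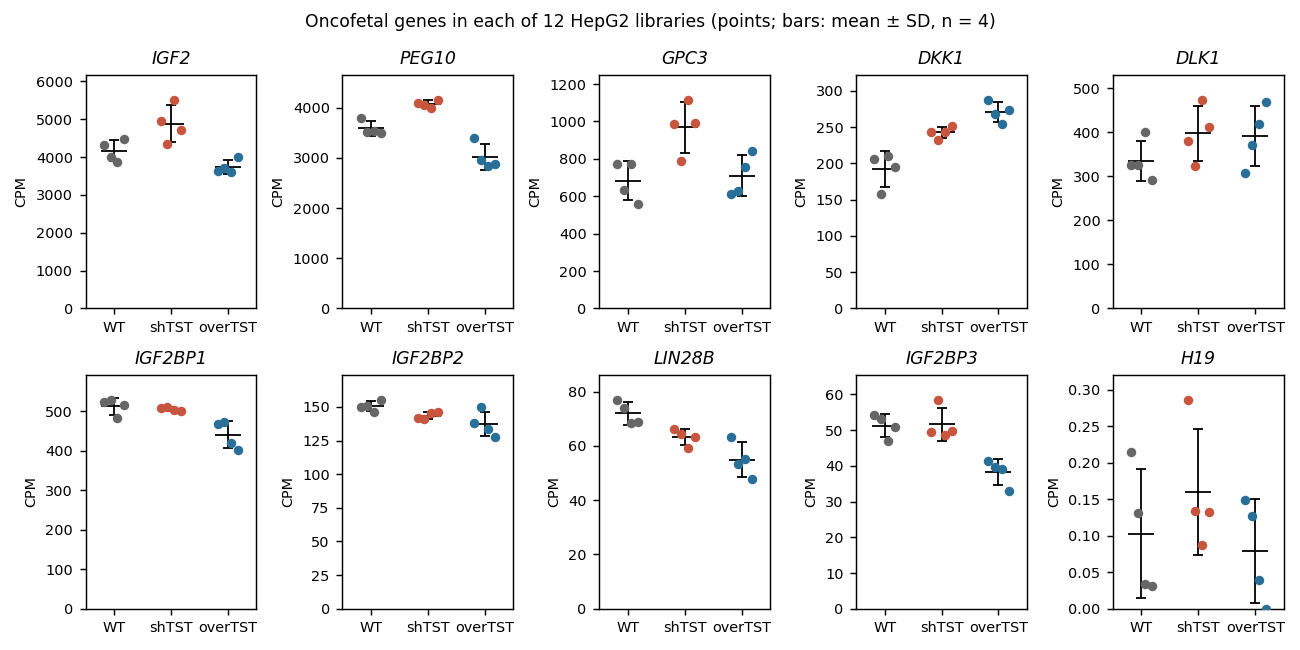
CPM of each of the 10 genes in each of the 12 libraries (points, replicates 1 to 4 from left to right), with mean and SD bars (n = 4), in panels whose axes start at 0. In overTST, PEG10, LIN28B, IGF2BP1 and IGF2BP3 lie wholly below and DKK1 wholly above WT, in shTST LIN28B and IGF2BP2 lie below and PEG10, GPC3 and DKK1 above, and H19 stays at or under 0.286 CPM.

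LIN28B (ENSG00000187772, chr6:104936616-105083332, plus strand), the let-7 blocking RNA-binding protein, was at 77.0, 74.1, 68.4 and 68.9 CPM in WT, at 66.1, 64.5, 59.3 and 63.5 in shTST and at 63.4, 53.3, 55.3 and 48.0 in overTST. Both engineered lines lay wholly below WT. LIN28B fell by 0.19 ± 0.05 on the log2 scale in shTST (adjusted p = 0.0146) and by 0.39 ± 0.07 in overTST (adjusted p = 1.03e-04). The shTST call was lost without WT replicate 1 (adjusted p = 0.0525) or shTST replicate 3 (0.0593), whereas the overTST call passed under all 18 alternatives. Between shTST and overTST the difference was 0.20 ± 0.06 (adjusted p = 0.0181). It was lost with the length correction (0.0695) and without shTST replicate 1 (0.0594), overTST replicate 2 (0.0542) or overTST replicate 4 (0.0981). LIN28A, its paralog, held 0 to 2 counts per library and is named here after its values were seen.

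IGF2BP3 (ENSG00000136231, chr7:23310209-23470467, minus strand), 1 of the 3 IGF2 mRNA-binding paralogs, was at 54.2, 53.1, 46.8 and 50.9 CPM in WT, at 49.4, 58.4, 48.6 and 49.8 in shTST and at 41.2, 39.7, 39.0 and 32.8 in overTST. All overTST libraries lay below all others. IGF2BP3 fell by 0.42 ± 0.07 on the log2 scale in overTST (adjusted p = 4.06e-05), and by 0.30 with the length correction (adjusted p = 0.000643), and passed under all 18 alternatives. In shTST its log2 fold change was 0.01 (95% CI -0.12 to 0.13, adjusted p = 0.951). The direct contrast was 0.43 ± 0.07 (adjusted p = 5e-05). MALSU1, on the opposite strand, shares 1521 of its exonic bases and held 1151 to 2102 counts per library, and whether reads were assigned by strand is not given in the sources used here.

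IGF2BP1 (ENSG00000159217, chr17:48997412-49055650, plus strand), the most abundant of the 3 paralogs, was at 522, 529, 482 and 516 CPM in WT, at 509, 510, 503 and 500 in shTST and at 468, 473, 420 and 403 in overTST. The shTST values sat inside the WT range and the overTST values below it. The log2 fold change was -0.02 in shTST (95% CI -0.11 to 0.07) and -0.22 ± 0.06 in overTST (adjusted p = 0.00356). With the length correction the overTST value was -0.09 (adjusted p = 0.221), and the direct contrast, 0.20 ± 0.05 (adjusted p = 0.00332), became 0.09 (0.168). IGF2BP2 (ENSG00000073792, chr3:185643739-185825056, minus strand), the paralog that persists in adult tissues, ranged from 146 to 155 CPM in WT, 141 to 146 in shTST and 128 to 150 in overTST. Its log2 fold change was -0.07 ± 0.04 in shTST (adjusted p = 0.272) and -0.13 ± 0.05 in overTST (adjusted p = 0.0501). The overTST value passed under 8 of 18 alternatives, among them leaving out overTST replicate 1 (adjusted p = 0.0495), overTST replicate 2 (0.0149) or WT replicate 3 (0.0454).

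Within the paralog family, the share of IGF2BP3 per length needs no scaling between libraries. It was 6.4 ± 0.23% in WT, 6.59 ± 0.55% in shTST and 5.48 ± 0.32% in overTST (SD, n = 4). Every overTST library (5.14 to 5.81%) was below every WT library (6.16 to 6.68%). The difference of -0.92 percentage points had an exact permutation p of 0.0286, the smallest possible here, and missed the threshold after adjustment over the 4 ratio tests (0.0571). In shTST the exact permutation p was 0.714.

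Of the 4 genes with let-7 matches, LIN28B, IGF2BP1 and IGF2BP3 were called lower in overTST. Among all tested genes with 2 or more matches, 27.9% of 165 were called lower in overTST, against 21.1% of 12069 genes with a 3′ UTR, and the median log2 fold changes were -0.08 and -0.02. With the length correction the share was 15.2% against 16%, and the median 0.01 against 0.00. In shTST, 7.36% of 163 genes with 2 or more matches were called lower, against 10.9% of 12148. These are descriptions without a test, and genes with more matches had longer 3′ UTRs (median 4720 against 1329 bases in overTST).

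GPC3 (ENSG00000147257, chrX:133535745-133985895, minus strand), a heparan sulfate proteoglycan on the cell surface and a diagnostic marker of hepatocellular carcinoma, was at 772, 634, 772 and 560 CPM in WT, at 986, 787, 1117 and 990 in shTST and at 612, 629, 759 and 840 in overTST. All shTST libraries lay above all WT libraries, while the overTST range overlapped WT. GPC3 rose by 0.50 ± 0.09 on the log2 scale in shTST (adjusted p = 0.000688), the largest change of the set in that comparison, and was 0.05 in overTST (95% CI -0.13 to 0.24, adjusted p = 0.692). The direct contrast was 0.45 ± 0.10 (adjusted p = 0.00103). The shTST call held in edgeR and DESeq2 and without any single library, and missed the threshold in limma-voom (log2 fold change 0.51, adjusted p = 0.0722). AFP, the fetal serum albumin homologue, was at 1787 to 2221 CPM in WT, 2331 to 3111 in shTST and 1735 to 2657 in overTST, and its log2 fold change was 0.49 ± 0.08 in shTST (adjusted p = 0.000215) and 0.08 ± 0.09 in overTST (0.571).

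DKK1 (ENSG00000107984, chr10:52314296-52318042, plus strand), a secreted antagonist of the Wnt co-receptors LRP5 and LRP6, was at 206, 157, 211 and 195 CPM in WT, at 243, 233, 243 and 251 in shTST and at 288, 268, 255 and 274 in overTST. Of the 10 genes, DKK1 alone had libraries wholly above WT in both engineered lines. DKK1 rose by 0.34 ± 0.06 on the log2 scale in shTST (adjusted p = 0.00112) and by 0.50 ± 0.07 in overTST (adjusted p = 6.16e-06). Both calls passed under all 18 alternatives, and with the length correction the overTST value was 0.38 (adjusted p = 1.05e-04). The log2 fold change of shTST against overTST was -0.16 (95% CI -0.29 to -0.03), which missed the threshold (adjusted p = 0.0515) although the ranges were apart, as they were in this direction for 14.7% of all genes tested.

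**Figure D4:**
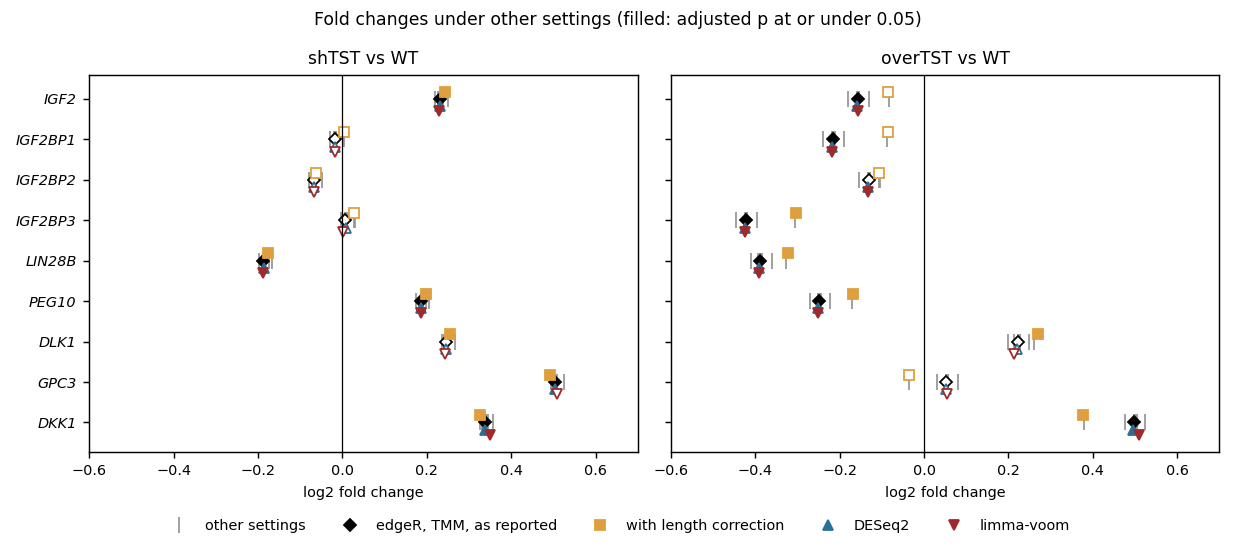
Log2 fold changes of the 9 tested genes against WT as reported (black diamonds), with a correction for gene length (squares), in DESeq2, in limma-voom (triangles) and under 6 other settings (ticks), filled where the adjusted p was at or under 0.05. In overTST the length correction moves IGF2 to -0.08 and IGF2BP1 to -0.09, both open symbols, while IGF2BP3 stays at -0.30, LIN28B at -0.32 and DKK1 at 0.38.

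For each gene called against WT, the genes whose centred log2 CPM over the 12 libraries differed least from its own were listed, out of 14883 genes. The measure is the root mean square difference. LIN28B was nearest to PRKCA, a protein kinase C (0.031), and KIF3B, a kinesin (0.049), against a spread of 0.19 for LIN28B itself. IGF2BP1 was nearest to the chromatin remodellers CHD4 (0.025) and SMARCC1 (0.036), and IGF2BP3 to the flippase ATP9A (0.046) and the ubiquitin ligase TRIM37 (0.052). PEG10 was nearest to CPS1, the first enzyme of the urea cycle (0.048), and the kinase PRKD3 (0.048). GPC3 was nearest to AFP (0.094) and the disulfide isomerase PDIA4 (0.099), and IGF2 to ethanolamine kinase ETNK2 (0.082) and fibrinogen alpha chain FGA (0.083). DKK1 was nearest to C6orf47 (0.073) and annexin ANXA4 (0.081). The spread of the gene itself was 0.12 for IGF2BP1, 0.23 for IGF2BP3 and 0.19 for PEG10. It was 0.30 for GPC3, 0.18 for IGF2 and 0.24 for DKK1. The distances include differences between replicates as well as between groups.

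Around IGF2, genes of the IGF axis, its receptors, binding proteins and signalling adaptors, were examined as a list. This and the following lists were also chosen with earlier results of these data known. In shTST, 4 of 12 tested genes of this list were lower and 0 higher, and in overTST 7 were lower and 2 higher. The background for this and the following lists was 9.4% of all genes called lower and 6.69% higher in shTST, and 18.2% lower and 15.7% higher in overTST. IGF2R, which clears IGF2 from the cell surface, was at 345 to 388 CPM in WT, 285 to 307 in shTST and 238 to 268 in overTST. It fell by 0.28 ± 0.05 on the log2 scale in shTST (adjusted p = 0.000238) and by 0.51 ± 0.05 in overTST (1.71e-07), and both lines lay wholly below WT. IGFBP1, an insulin-repressed binding protein, was at 86.9 to 154 CPM in WT and 42.8 to 64.6 in shTST, a log2 fold change of -1.10 ± 0.12 (adjusted p = 4.45e-06). IGFBP6 fell by 0.41 ± 0.10 in shTST (adjusted p = 0.00505) and rose by 0.29 ± 0.09 in overTST (0.0161). In overTST the insulin receptor substrate IRS1 fell by 0.46 ± 0.07 (adjusted p = 1.5e-05) and IGFBP2 by 0.44 ± 0.16 (0.0333). The IGFBP2 call was lost in DESeq2 (adjusted p = 0.0509) and without overTST replicate 2 (0.149), overTST replicate 3 (0.0679), WT replicate 1 (0.0602) or WT replicate 3 (0.11). With the length correction the IGF axis had 4 calls in overTST in place of 9.

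Of the LIN28 and let-7 pathway, 10 genes were tested, of which 3 were lower in shTST and 4 in overTST, with 0 higher in either. In shTST, the DNA-binding protein ARID3B (-0.19 ± 0.06, adjusted p = 0.037), the exonuclease DIS3L2 (-0.18 ± 0.05, 0.0201) and the chromatin protein HMGA1 (-0.17 ± 0.05, 0.0195) fell. Of these 3 calls, 0 were left without shTST replicate 1 and 1 without shTST replicate 2, shTST replicate 4 or WT replicate 4. ARID3B was also lost without shTST replicate 3 (adjusted p = 0.056), WT replicate 1 (0.0574) or WT replicate 2 (0.142). In overTST, DICER1, which cuts microRNA precursors, fell by 0.46 ± 0.08 (adjusted p = 6.34e-05). TUT4, which tags pre-let-7 for decay, fell by 0.32 ± 0.07 (0.00104), and the let-7 target TRIM71 by 0.24 ± 0.06 (0.00242). With the length correction the TUT4 and TRIM71 calls were lost, at -0.12 (adjusted p = 0.246) and -0.11 (0.108).

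Of the imprinted neighbours and imprinting control genes, 2 of 11 were higher and 1 lower in shTST (3 calls, against 16.1% of all genes), and 2 of 10 higher and 5 lower in overTST, where the 2 higher are near the 15.7% of all genes. PHLDA2, near IGF2 on chromosome 11, was at 6.21 to 9.79 CPM in WT and 3.88 to 5.36 in shTST, a fall of 0.90 ± 0.13 (adjusted p = 9.5e-05). KCNQ1OT1, the imprinted antisense RNA of the same cluster, rose by 0.20 ± 0.07 in shTST (0.0471) and by 0.55 ± 0.07 in overTST (adjusted p = 4.06e-06). MEST rose by 0.18 ± 0.06 in shTST (0.0309). The count of 3 in shTST became 1 with no filter and without shTST replicate 1, shTST replicate 4 or WT replicate 2. The KCNQ1OT1 call in shTST was lost under 8 of 18 alternatives, among them the length correction (adjusted p = 0.0622) and the omission of shTST replicate 1 (0.124), shTST replicate 3 (0.0671), shTST replicate 4 (0.0995), WT replicate 1 (0.142) or WT replicate 2 (0.107). That of MEST was also lost without WT replicate 4 (0.0529). In overTST, PEG3 fell by 0.55 ± 0.06 (adjusted p = 1.7e-07), with all libraries at 336 to 402 CPM against 499 to 571 in WT, and MRPL23, beyond H19, rose by 0.38 ± 0.07 (0.000197).

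The list of glypicans and Wnt antagonists also holds the Wnt co-receptors LRP5 and LRP6 and the sulfatases SULF1 and SULF2. Of its tested genes, 1 of 11 was higher and 1 lower in shTST, and 1 of 10 higher and 5 lower in overTST. In shTST, SULF2, which removes sulfates from heparan chains such as those of GPC3, rose by 0.29 ± 0.05 (adjusted p = 0.000242), and LRP5 fell by 0.31 ± 0.05 (0.000372). Both were called lower in overTST, SULF2 by 0.15 ± 0.05 (adjusted p = 0.0362) and LRP5 by 0.18 ± 0.05 (0.0106). In overTST, DKK4, a relative of DKK1 at 3.73 to 5.09 CPM in WT and 6.99 to 9.26 in overTST, rose by 0.87 ± 0.12 (adjusted p = 6.8e-06). LRP6 fell there by 0.50 ± 0.07 (1.67e-05) and the glypican GPC6 by 0.46 ± 0.06 (8.26e-06).

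Of the fetal liver genes and their repressors, 5 of 14 were higher and 2 lower in shTST, and 2 of 14 higher and 3 lower in overTST. Beside AFP, BEX1 rose by 0.28 ± 0.07 in shTST (adjusted p = 0.00705) and ZHX3, of a family that includes an AFP repressor, fell by 0.24 ± 0.06 (0.00995). The count in shTST became 4 without WT replicate 1 or WT replicate 2. In overTST, ZBTB20, a repressor of AFP, was at 3.18 to 4.89 CPM against 2.4 to 3.18 in WT and rose by 0.63 ± 0.15 (0.00208). SOX4 rose by 0.46 ± 0.05 (adjusted p = 1.06e-06) and the stem cell marker PROM1 fell by 0.41 ± 0.15 (0.0375). The PROM1 call was lost under 8 of 18 alternatives, namely DESeq2 (adjusted p = 0.0659), the length correction without (0.12) and with the block (0.0977), and the omission of overTST replicate 2 (0.0778), overTST replicate 3 (0.171), WT replicate 1 (0.0846), WT replicate 2 (0.0992) or WT replicate 4 (0.0672).

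Of the adult hepatocyte genes, 3 of 11 were higher and 1 lower in shTST, and 3 higher and 3 lower in overTST. In shTST, ALB was at 6430 to 8342 CPM against 5127 to 6234 in WT and rose by 0.39 ± 0.08 (adjusted p = 0.0014). Transferrin, TF, rose by 0.41 ± 0.08 (0.00185) and transthyretin, TTR, fell by 0.33 ± 0.05 (adjusted p = 7.66e-05). In overTST, CPS1 fell by 0.25 ± 0.06 (0.00244), APOA1 rose by 0.24 ± 0.08 (0.0167) and the asialoglycoprotein receptor ASGR1 rose by 0.22 ± 0.05 (0.00227). CPS1 was called higher in shTST (0.15 ± 0.05, adjusted p = 0.0436), and TTR higher in overTST (0.16 ± 0.05, 0.0197). ALB was 0.13 ± 0.09 in overTST (adjusted p = 0.269). The TF call in shTST was lost in limma-voom (0.0889). With the length correction CPS1 in overTST was -0.09 (adjusted p = 0.237) and APOA1 0.07 (0.455), and the 6 calls of the list became 3 with the block added. APOA1 was also lost in DESeq2 (0.107), in limma-voom (0.124) and without overTST replicate 3 (0.0558), overTST replicate 4 (0.103) or WT replicate 2 (0.0686).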

How the data were processed

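RNA-seq was available for 12 HepG2 libraries. Per the submitters' processing notes, reads were trimmed with Trimmomatic 0.36, aligned with STAR 2.5.2b to GRCh38 and counted per gene with featureCounts (Subread 1.5.2). The annotation release and the use of strand are not given in the sources used here. The authors deposited raw counts for 57500 genes per library, without normalization. Total counts were 22911380 to 45120508 per library, and the floor of 3 counts given for H19 covers counting error only, whereas the 95% confidence intervals come from the edgeR fit and include the spread between libraries.

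Only WT and the engineered line entered the fits against WT, and all 12 libraries that of shTST against overTST, in edgeR 4.0.16 in R 4.3.3 (filterByExpr, TMM, quasi-likelihood test, Benjamini-Hochberg adjustment over all genes tested at 0.05). Alternatives used DESeq2 1.42.0, limma-voom (limma 3.58.1), other scalings and filters, a replicate block, a correction of fold changes for exonic length and each library left out. Replicate pairs differed by more than sampling noise (chi-square per gene 3.79 to 38.9 in 18 pairs). Exact permutation tests used SciPy 1.17.1. CPM were scaled by TMM over the 12 libraries, and TPM used the exonic lengths in the count files, while 3′ UTRs came from GENCODE 29. Gene symbols came from a separate list of gene names, with GENCODE 29 for listed symbols not found there. The tests were also tested on simulated data with 200 changed genes. The share of false edgeR calls there was 7.41% in shTST against WT, 4.31% in overTST against WT and 7.83% in shTST against overTST. In DESeq2 it was 6.54%, 7.41% and 10.7%. The simulation gave every gene the same spread and held no trend with gene length. It had far fewer changed genes than were called here, with larger changes than those of the oncofetal genes. These shares are therefore not error rates of the calls above.

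The 10 genes and the lists were chosen with earlier results of these data known. Named besides them were TST, AFP, ALB, up to 3 genes per list and WT comparison with the largest absolute log2 fold change among those called at an average log2 CPM of at least 1, and the 2 genes nearest each called gene. Genes outside this rule were chosen after their values were seen. MicroRNA sequences came from RefSeq.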

Additional observations from a re-analysis of the deposited data

Results flagged for a closer look

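Of 129 groups of 4 libraries examined, 5 held a library whose gap to the nearest other exceeded Dixon's 95% critical value, and chance gives about 1 in 20. PEG10 was highest in WT replicate 1, at 3802 CPM against 3505 to 3531 in the other libraries. IGF2BP3 was highest in shTST replicate 2, at 58.4 CPM against 48.6 to 49.8. TST was highest in shTST replicate 3, at 36.6 CPM against 33.0 to 33.6, and MRPL23 in the same library, at 32.9 CPM against 28.8 to 29.5. MEST was lowest in WT replicate 2, at 29.1 CPM against 31.6 to 32.0.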

How the results depend on the processing

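Of the log2 fold changes of the oncofetal genes under the alternatives, 416 kept direction and side of the threshold, 26 lost the threshold, 29 gained it and 15 changed sign. The cause of these changes was not tested. The number of the genes called higher in overTST against WT was 2 in place of 1 with upper-quartile scaling, no filter, the replicate block, the length correction and both together. The number called lower there was 3 in place of 5 with the length correction, alone or with the block. In shTST against overTST, 1 gene in place of 0 was called lower with RLE, upper quartile, no filter, more than 1 CPM in 4 libraries, a change in which libraries entered the fit, and the block. Leaving out each library in turn gave 3 to 6 called genes in shTST against WT (5 with all libraries), with 0 to 1 lower, 1 to 2 higher in overTST, and 0 to 1 lower in shTST against overTST. Over all genes, 1513 to 2336 were called in shTST against WT, against 2346. The lowest count, 1513, was without shTST replicate 1, and the count of 3 without shTST replicate 3.

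Values that changed sign were near 0. IGF2BP1 in shTST became 0.0022 with upper quartile, 0.0035 with the length correction and 0.0038 with the block added. IGF2BP3 in shTST became -0.0044 with no filter and -0.053 to 0.038 without single libraries. GPC3 in overTST became -0.036 with the length correction, with or without the block, and -0.038 to 0.12 without single libraries. DLK1 in shTST against overTST became -0.015 and -0.018 with the length correction without and with the block, and -0.076 to 0.12 without single libraries. AFP in overTST ranged from -0.052 to 0.16. The IGF2BP3 share in shTST minus WT ranged from -0.0831 to 0.312 percentage points, and the PEG10 to SGCE log2 ratio in overTST minus WT from -0.040 to 0.033.

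Same-numbered libraries of different groups had correlations of deviations from -0.0527 to 0.0801, and 5 of 12 libraries correlated best with their own number. These correlations cannot show whether such libraries share a day. With the replicate block, 6 genes in place of 5, 8 in place of 6 and 7 in place of 6 were called in shTST against WT, overTST against WT and shTST against overTST, and over all genes 2980, 5166 and 5232 in place of 2346, 4893 and 4907. Depth limits H19, at 0 to 8 counts per library.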
